A study of Homo sapiens with 3 samples.

Results

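Aldehyde dehydrogenases are enzymes that oxidise aldehydes to carboxylic acids with NAD+ or NADP+ as the acceptor of electrons. The genes described here are 10 of the 21610 genes with a usable probe on all 3 arrays: ALDH1A1, ALDH1A2, ALDH1A3, ALDH1B1, ALDH2, ALDH3A1, ALDH3A2, ALDH3B1, ALDH7A1 and ALDH9A1. They were chosen by their symbols, with earlier results of these data known, and all of their 17 probes, among 50599 on the array, are reported. A symbol was given to a probe through the transcript accession listed for it on the array.

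The cells were of HT29, a line established from a human colon adenocarcinoma, and the labels name no genetic change or drug. Cells on tissue culture polystyrene (TCP) plates were the control group. The other groups were grown on chitosan (CS) membranes, a polysaccharide film coated on the wells, or on hyaluronan-grafted chitosan (CSHA) membranes, which carry crosslinked hyaluronan on the same film. The RNA from a substrate went, labelled with 1 dye, to 1 array, and the 3 arrays lay on 1 slide. No difference between substrates therefore has a replicate check, no p-value is given, and the comparisons of CS and of CSHA share the TCP array. Each aldehyde dehydrogenase probe was printed as 1 spot per array.

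The members of the family differ in substrate and in cellular compartment. The ALDH1A enzymes of the cytosol make retinoic acid, the ligand of nuclear retinoic acid receptors, from retinaldehyde. ALDH2 and ALDH1B1 of the mitochondrion clear acetaldehyde, and the ALDH3 enzymes oxidise fatty and aromatic aldehydes. ALDH7A1 acts in the breakdown of lysine, and ALDH9A1 oxidises an aldehyde on the route to carnitine. High aldehyde dehydrogenase activity is widely used to sort stem-like cells from colon tumours, and the study measured that activity in the same cell line by a fluorescence assay that cannot tell the enzymes apart. The study also measured the ALDH1A1 transcript by RT-PCR and reports it as higher in HT29 on both membranes. The arrays hold the transcript of each gene separately.

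Upstream windows are shown for members that were above TCP on each membrane, in comparisons that share the TCP array. Of the 10 members, 8 had a window in the RefSeq promoter table of GRCh38.p14, with 11 windows in all, and ALDH2 and ALDH3A1 had no entry. Each sequence holds the 250 bases before an annotated start, read 5′ to 3′ on the strand of the gene. Capitals mark the CCAAT box (CCAAT or its reverse complement ATTGG) and the GC box (GGGCGG or its reverse complement CCGCCC). The windows lie at chr9:72953054-72953303 on the minus strand for ALDH1A1, chr17:19648501-19648750 on the plus strand for ALDH3A2, chr5:126595220-126595469 on the minus strand for ALDH7A1 and chr1:165698563-165698812 on the minus strand for ALDH9A1.
ALDH1A1: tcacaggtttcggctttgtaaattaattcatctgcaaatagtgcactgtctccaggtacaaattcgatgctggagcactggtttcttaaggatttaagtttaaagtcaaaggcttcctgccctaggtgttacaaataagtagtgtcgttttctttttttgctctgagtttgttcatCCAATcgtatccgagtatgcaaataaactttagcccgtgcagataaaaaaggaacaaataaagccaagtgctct
ALDH3A2: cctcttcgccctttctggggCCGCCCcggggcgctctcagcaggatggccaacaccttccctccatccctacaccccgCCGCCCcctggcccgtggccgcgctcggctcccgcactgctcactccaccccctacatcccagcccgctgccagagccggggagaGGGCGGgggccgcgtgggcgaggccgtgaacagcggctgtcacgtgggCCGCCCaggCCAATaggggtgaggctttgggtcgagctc
ALDH7A1: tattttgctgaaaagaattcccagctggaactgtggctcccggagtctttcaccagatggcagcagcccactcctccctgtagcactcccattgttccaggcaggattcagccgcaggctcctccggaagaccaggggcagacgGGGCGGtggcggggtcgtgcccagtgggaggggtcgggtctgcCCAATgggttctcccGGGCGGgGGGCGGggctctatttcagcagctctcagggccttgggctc
ALDH9A1: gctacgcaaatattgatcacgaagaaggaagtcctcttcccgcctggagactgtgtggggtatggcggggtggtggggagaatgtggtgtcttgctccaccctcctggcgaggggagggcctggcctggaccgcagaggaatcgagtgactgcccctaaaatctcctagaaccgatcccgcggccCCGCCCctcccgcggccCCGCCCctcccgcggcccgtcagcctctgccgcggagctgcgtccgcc

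The window of ALDH1A1 differed from the other windows shown in base composition, at 38.4% G and C against 73.2% for ALDH3A2, 64.0% for ALDH7A1 and 67.2% for ALDH9A1. It held 1 CCAAT box and no GC box. The windows shown for ALDH3A2 and ALDH7A1 held 1 CCAAT box each, with 4 and 3 GC boxes, and that of ALDH9A1 held 2 GC boxes and no CCAAT box. ALDH3A2 has another window, at chr17:19647886-19648135 on the plus strand with 55.6% G and C, which held neither box and is not printed. Over the 11 windows of the members, 6 held a CCAAT box and 7 a GC box, where 32.0% and 42.6% of the 35116 windows of all genes did. Both strands were searched, and a GC box and a CCAAT box can share bases, which they did not in the windows shown. The TATA box (TATAAA), the antioxidant response core (TGACNNNGC), the xenobiotic response core (TNGCGTG) and the TCF core (CTTTGNT) were in none of the 11 windows. They were in 10.7%, 10.9%, 4.52% and 13.2% of all windows. These matches describe letters in the windows.

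The arrays were of like quality. Probes well above background, by the flag of the scanner software, made up 48.6% to 51.1% of the probes, and no spot was saturated. Markers of colon epithelium were well above background at 10 of 11 genes on TCP and at all 11 on both membranes. Of 7 stroma markers, SPARC and VIM passed on TCP and none passed on the membranes, with COL1A1, COL1A2, COL3A1, DCN and LUM below that level on all 3 arrays. Of 6 hepatocyte markers 2 passed on TCP and 3 on each membrane, and ALB, AFP and APOB passed on none. Fewer cells of a type and less RNA per cell cannot be told apart in such bulk samples. Of 5 leukocyte markers, 4 passed on TCP and CSHA and 3 on CS, while CSF1R passed on no array. Their summed signal was 1122, 1738 and 1944 on TCP, CS and CSHA, most of it from CD14 (834, 1408 and 1633). CD68 was also higher on the membranes (119, 248 and 228), CD3E was lower (122, 20.6 and 34.4), and PTPRC read 39.2, 52.5 and 38.6. The part of these signals in the differences below was not tested.

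A level is the log2 of the processed signal minus the 75th percentile of its array, and a difference is one level minus another on that log2 scale. A level of 0 is the 75th percentile, and levels of different probes are not comparable with each other. The spot error of a difference was taken from probes printed 10 times on each array and covers the spread among spots, not the spread among cultures. A difference of 1, which is 2-fold, was the size at which a gene was counted as changed.

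Of the 10 members, 9 were well above background on all 3 arrays and ALDH1A2 on none. Relative to TCP, 7 of the 9 were higher and 2 (ALDH1A3 and ALDH3B1) lower on CS, where 56.8% of the 14462 genes with a value were higher and 43.2% lower. The median difference of the 9 was 0.29 on CS, against 0.04 for all genes. On CSHA 6 of the 9 were higher and 3 (ALDH1A3, ALDH1B1 and ALDH3B1) lower, where 61.7% of 14624 genes were higher and 38.3% lower, and the median was 0.41 against 0.13. With spike-in scaling, an alternative described below, all 9 were higher on CSHA. The median difference of the colon epithelium markers was 0.24 on CS and 0.44 on CSHA, and their part in the differences of the members was not tested. ALDH3A1 was the 1 member at least 2-fold higher on CS, a size that 1.36% of all genes reached. No member was at least 2-fold higher on CSHA, where 3.02% of all genes were. No member was at least 2-fold lower on either membrane, where 1.92% of all genes were on CS and 3.98% on CSHA.

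**Figure D1:**
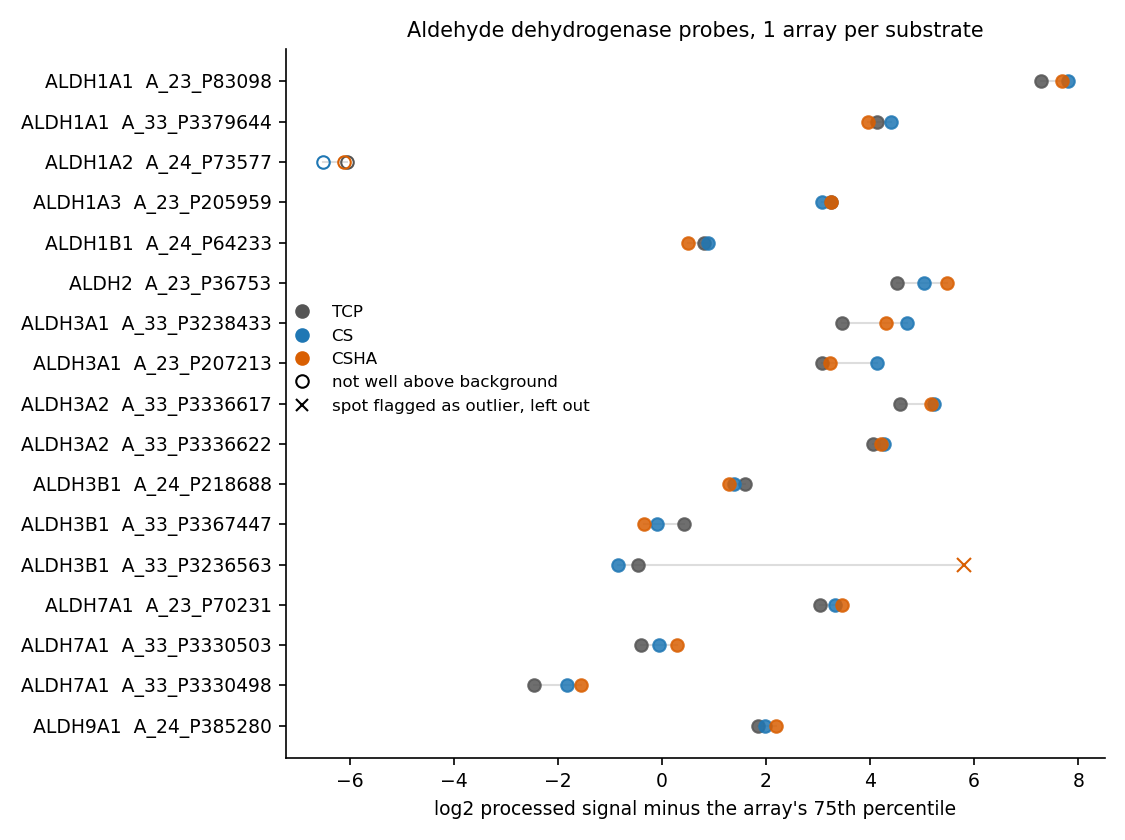
Levels of the 17 aldehyde dehydrogenase probes on TCP (grey), CS (blue) and CSHA (orange), with 1 array each and the log2 processed signal minus the 75th percentile of the array on the x axis. Open circles are not well above background, which applied to ALDH1A2 alone, and the cross is the CSHA spot of an ALDH3B1 probe that was left out as an outlier. Rows are not comparable with each other.

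ALDH1A1, the retinaldehyde dehydrogenase most often used to mark stem-like cells, had a processed signal of 55101 on TCP, 93782 on CS and 69636 on CSHA at its brighter probe (A_23_P83098). The TCP array was the lowest of the 3. The differences from TCP were 0.51 (spot error 0.048) on CS and 0.41 (spot error 0.052) on CSHA, which are 1.43-fold and 1.33-fold. The other ALDH1A1 probe (A_33_P3379644), which is listed for the same transcript NM_000689, read 6226 on TCP, 8910 on CS and 5223 on CSHA. Its difference was 0.26 (spot error 0.056) on CS. On CSHA it was -0.18 (spot error 0.061), and 0.25 when arrays were scaled to spike-in probes. In the main setting the probes of ALDH1A1 were thus both higher on CS and opposite in sign on CSHA.

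ALDH1A2, a retinaldehyde dehydrogenase of embryonic tissue, was not well above background on any array, with signals of 5.33, 4.66 and 4.92 on TCP, CS and CSHA, and no difference is given. ALDH1A3, the remaining retinaldehyde dehydrogenase, read 3387.5 on TCP, 3551 on CS and 3197 on CSHA (A_23_P205959, NM_000693). It was lower on CS by a difference of -0.19 (spot error 0.058). On CSHA its difference of -0.01 (spot error 0.063) was smaller than the spot error, and it became 0.42 with spike-in scaling. Among the retinaldehyde dehydrogenases, ALDH1A1 and ALDH1A3 therefore differed in direction on CS.

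ALDH2, the main acetaldehyde dehydrogenase of mitochondria, had a signal of 8087 on TCP, 13818 on CS and 15048 on CSHA (A_23_P36753, NM_000690). Its levels of 4.51, 5.03 and 5.48 placed CSHA highest and TCP lowest. The difference from TCP was 0.52 (spot error 0.058) on CS and 0.97 (spot error 0.062) on CSHA, or 1.95-fold, and the gap between the membranes was 0.45 (spot error 0.059). On CSHA it was the member with the greatest difference from TCP. ALDH1B1, a mitochondrial enzyme close to ALDH2 in sequence, read 621 on TCP, 782 on CS and 478 on CSHA (A_24_P64233, NM_000692). Its difference was 0.08 (spot error 0.075) on CS, about the size of the spot error, and -0.31 (spot error 0.081) on CSHA, which became 0.12 with spike-in scaling. ALDH2 and ALDH1B1 did not share a direction on CSHA in the main setting.

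ALDH3A1, an enzyme for aromatic and medium-chain aldehydes that is known as inducible by xenobiotics, read 3902 on TCP, 11101 on CS and 6638.5 on CSHA at its brighter probe (A_33_P3238433, NM_001135168). Levels were 3.46, 4.72 and 4.30. It rose by 1.25 (spot error 0.057) on CS, or 2.38-fold, and was higher by 0.84 (spot error 0.058) on CSHA, or 1.79-fold. The other probe of the gene (A_23_P207213, NM_000691) read 2970.0 on TCP, 7417 on CS and 3183 on CSHA. Its difference was 1.07 (spot error 0.056) on CS and 0.17 (spot error 0.065) on CSHA. Both probes placed CS highest and TCP lowest, both passed 2-fold on CS, and they differed in size on CSHA.

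ALDH3A2, the fatty aldehyde dehydrogenase of the endoplasmic reticulum, is encoded beside ALDH3A1 on chromosome 17, with 1 protein-coding gene, SLC47A2, between them. Its brighter probe (A_33_P3336617, NM_000382) read 8387 on TCP, 15892 on CS and 12204 on CSHA. Its differences were 0.67 (spot error 0.056) on CS and 0.61 (spot error 0.062) on CSHA, or 1.59-fold and 1.53-fold. The probe listed for another transcript of the gene (A_33_P3336622, NM_001031806) read 5907, 8179 and 6219 on TCP, CS and CSHA, with differences of 0.21 and 0.14. The probes of ALDH3A2 had the same direction on both membranes, and the brighter one had the larger differences.

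ALDH3B1, which oxidises lipid-derived aldehydes at membranes, was lower on both membranes at the probe that stands for the gene (A_24_P218688, NM_000694), except that spike-in scaling turned the CSHA value to 0.13. Its signals were 1071, 1101 and 828 on TCP, CS and CSHA, and its differences -0.22 (spot error 0.065) and -0.30 (spot error 0.068). A further probe (A_33_P3367447, NM_001161473) read 477 on TCP, 394 on CS and 268 on CSHA, with differences of -0.53 (spot error 0.088) and -0.76 (spot error 0.099). That probe was lower on both membranes under spike-in scaling as well, at -0.47 and -0.33. The last probe (A_33_P3236563, NM_001290058) read 258 on TCP and 237 on CS, a difference of -0.38 (spot error 0.10). Its CSHA spot read 18933 and was left out, since the scanner software flagged it as not uniform.

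ALDH7A1, the antiquitin enzyme of lysine breakdown, was higher on both membranes at each of its 3 probes. The brightest (A_23_P70231, NM_001182) read 2892 on TCP, 4221 on CS and 3736 on CSHA, with differences of 0.29 (spot error 0.056) and 0.44 (spot error 0.060). A dimmer probe (A_33_P3330503) read 269, 404.5 and 413 on TCP, CS and CSHA, with differences of 0.34 and 0.69. The dimmest (A_33_P3330498) read 64.2, 119.9 and 114, with differences of 0.65 (spot error 0.19) and 0.90 (spot error 0.19). All 3 probes were listed for the same transcript and placed CSHA above CS in level, and the sizes differed among them. The annotation holds 4 pseudogenes of ALDH7A1, whose transcripts a probe could share.

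ALDH9A1, which oxidises trimethylaminobutyraldehyde for carnitine synthesis, read 1275 on TCP, 1671 on CS and 1538 on CSHA (A_24_P385280, NM_000696). Its levels of 1.85, 1.98 and 2.19 placed CSHA highest. The difference was 0.14 (spot error 0.064) on CS and 0.34 (spot error 0.070) on CSHA. On CS this was near 2 spot errors, and the median of all genes was at 0.04.

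**Figure D2:**
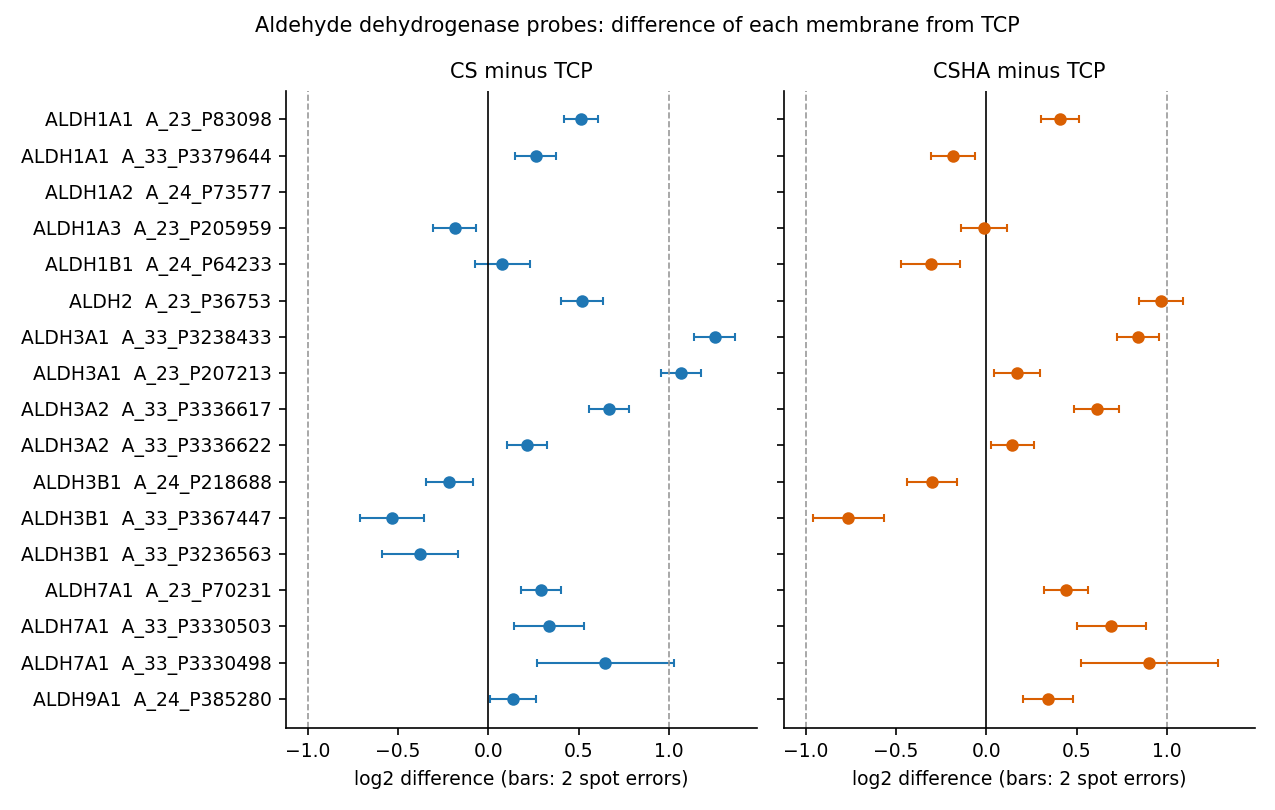
Difference from TCP of each aldehyde dehydrogenase probe on CS (left) and CSHA (right), on the log2 scale, with bars of 2 spot errors and dashed lines at 2-fold. Both ALDH3A1 probes lie beyond 2-fold on CS, at 1.25 and 1.07, no probe does on CSHA, and the probes of ALDH1A1 lie on opposite sides of 0 on CSHA in this setting, though not with spike-in scaling; ALDH1A2 has no value, and 1 ALDH3B1 probe has none on CSHA.

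Over probes in place of genes, 16 of the 17 had a value on CS and 15 on CSHA. On CS 12 were higher and 4 lower, and 11 and 4 of these lay beyond 2 spot errors. On CSHA 10 were higher and 5 lower, and 10 and 4 lay beyond 2 spot errors. No such share was taken over all probes, so these counts do not show whether the members stand out. Probes of 1 gene share their target and are not independent of each other.

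The position of the members among all genes differed between the membranes. On CS the differences of all genes lay between -0.59 and 0.53 from the 5th to the 95th percentile, and ALDH3A1 and ALDH3A2 were above that range. On CSHA the same range was wider, from -0.90 to 0.82, and ALDH2 and ALDH3A1 were above it. At a size of 1.5-fold, ALDH3A1 and ALDH3A2 were higher on CS, 2 of 9 members where 4.11% of all genes were. On CSHA ALDH2, ALDH3A1 and ALDH3A2 were, 3 of 9 members where 11.5% of all genes were. No member was 1.5-fold lower at the probe that stands for it, where 5.03% and 11.2% of all genes were.

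**Figure D3:**
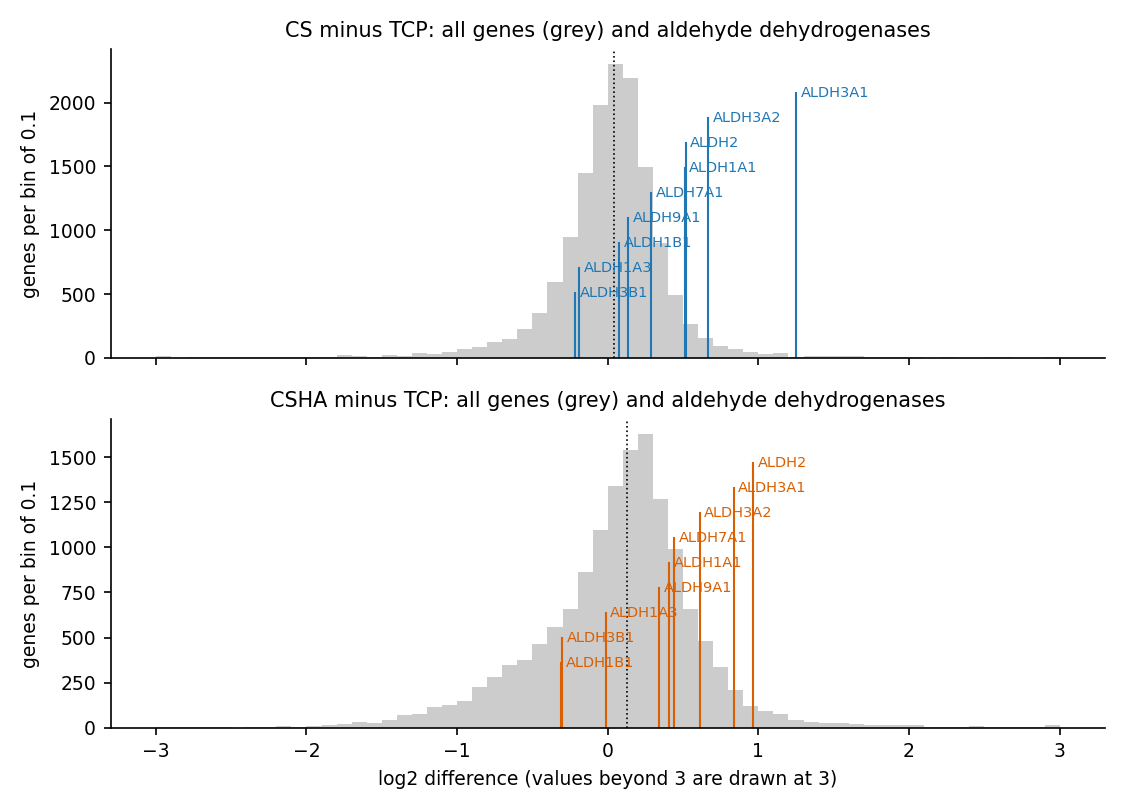
Histograms of the log2 difference from TCP over all genes with a value (14462 on CS, 14624 on CSHA) with a coloured line at each aldehyde dehydrogenase and a dotted line at the median of all genes; the heights of the coloured lines carry no meaning. ALDH3A1 lies farthest right on CS at 1.25 and ALDH2 on CSHA at 0.97, and the members below 0 lie within the body of the histogram.

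Between the membranes, 4 members were higher on CSHA than on CS and 5 lower, with a median of -0.06 against 0.07 for all genes, where 58.5% of 14597 genes were higher and 41.5% lower. No member passed 2-fold, a size that 2.27% of all genes reached upward and 2.15% downward. At the probe that stands for the gene, none passed 1.5-fold either, which 7.68% and 7.33% of all genes did. ALDH2 at 0.45, ALDH9A1 at 0.21, ALDH1A3 at 0.17 and ALDH7A1 at 0.15 were higher on CSHA. ALDH3A1 at -0.42 and ALDH1B1 at -0.39 were lower, but with spike-in scaling they were at -0.04 and -0.01, within the spot errors of 0.057 and 0.075. The other ALDH3A1 probe (A_23_P207213) was at -0.90 (spot error 0.063), or 0.54-fold, which is past 1.5-fold. With spike-in scaling that probe was still lower, at -0.52. ALDH1A1 at -0.10, ALDH3B1 at -0.09 and ALDH3A2 at -0.06 were lower as well, but became 0.27, 0.29 and 0.32 with spike-in scaling. For ALDH3A2 and ALDH3B1 these gaps were under 2 spot errors. The other ALDH1A1 probe (A_33_P3379644) was at -0.45 (spot error 0.058), and at -0.07 with spike-in scaling.

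The scaling of the arrays bore on every CSHA value. Scaling to 7 spike-in probes in place of the 75th percentile moved the all-gene median by 0.44 on CSHA and by 0.06 on CS. With it, ALDH2, ALDH3A1 and ALDH3A2 passed 2-fold on CSHA, at 1.40, 1.27 and 1.04. That size was reached on CSHA by 442 of all genes in the main setting and by 1797 with spike-in scaling. With that scaling the other probes of ALDH3A1 and ALDH3A2 were at 0.60 and 0.58. The dimmer probes of ALDH7A1 passed 2-fold with it, at 1.12 and 1.34. The median of the members above that of all genes was 0.28 in that setting. On CS, ALDH3A1 stayed between 1.16 and 1.31 under the alternatives, and on CSHA between 0.50 and 1.27.

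**Figure D4:**
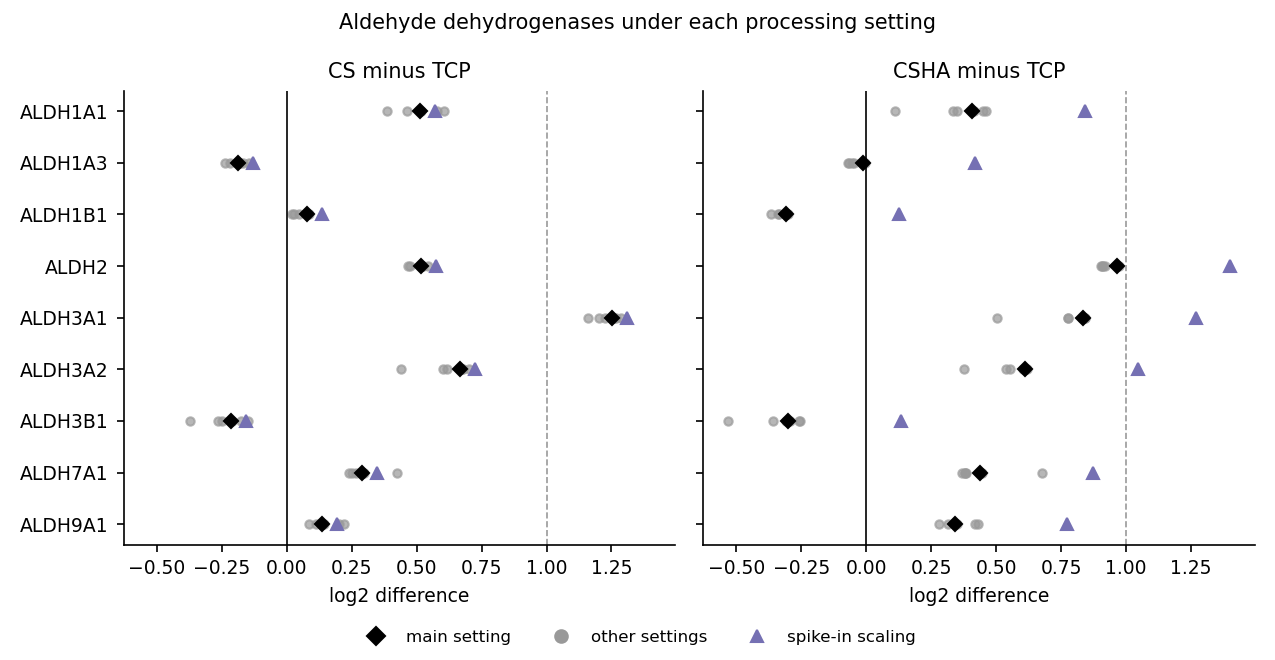
Log2 difference from TCP of each member on CS (left) and CSHA (right) in the main setting (diamonds), under spike-in scaling (triangles) and under the other alternatives (grey points), with a dashed line at 2-fold. Spike-in scaling moves all CSHA values to the right and takes ALDH1A3, ALDH1B1 and ALDH3B1 across 0; the ALDH3B1 value of 6.27 with the outlier spot kept is not drawn.

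The remaining genes of the family were 9, of which ALDH3B2 had no matched probe and ALDH8A1 was not well above background. Of the 6 measured on all arrays, 5 were higher on CS, with a median of 0.21, and 4 on CSHA, with a median of 0.28, and none passed 2-fold. Among all 13486 genes measured on all arrays, 56.8% and 61.7% were higher, with medians of 0.04 and 0.12. With the mean over probes, 4 of the 6 were higher on CS (median 0.16) and 3 on CSHA (median 0.04). ALDH6A1, the methylmalonate semialdehyde dehydrogenase of valine breakdown, read 369 on TCP, 729 on CS and 630.2 on CSHA, with differences of 0.73 and 0.84. ALDH4A1, an enzyme of proline breakdown, read 3209, 4376 and 4467 at the probe that stands for it, with differences of 0.19 and 0.55. Its other probe went the opposite way, at -0.53 and -0.83. ALDH18A1, which makes the precursor of proline, was higher by 0.28 and 0.34, and ALDH5A1, the succinic semialdehyde dehydrogenase, by 0.22 and 0.23. ALDH16A1 had differences of 0.10 on CS and -0.20 on CSHA, the latter 0.24 with spike-in scaling. ALDH1L1, a folate enzyme, was dim at 43.3, 47.0 and 26.9 on TCP, CS and CSHA, and its differences of -0.14 and -0.61 had spot errors of 0.26 and 0.33. ALDH1L2 was well above background on CS only, at a difference of at least 0.45, a bound whose direction is fixed by the filter.

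Partner genes of the same pathways were read from lists of genes with known roles. Counts and medians below are over the genes of a list that were well above background on all 3 arrays. Of the 13486 genes measured that way, 56.8% were higher on CS and 61.7% on CSHA, with medians of 0.04 and 0.12. The retinoid list held 20 genes that carry, oxidise or degrade retinoids. On CS 8 of 13 were higher (median 0.13), and on CSHA 8 of 13 (median 0.15). RDH11, a retinal reductase, was the highest of these on both, at 0.36 and 0.77. CYP26A1, a retinoic acid hydroxylase, was the lowest on CS at -0.82 (spot error 0.30), and RDH13 on CSHA at -0.97. CYP26B1 was well above background on CSHA only, at a difference of at least 1.19.

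Of the 15 retinoic acid receptors and target genes, 11 were measured on all arrays. On CS 4 of the 11 were higher (median -0.12), and on CSHA 6 (median 0.15). RARRES1, a retinoid-induced gene, was the highest on both membranes, at 0.33 and 0.86. Among the 11, TGM2, a transglutaminase induced by retinoic acid, was the lowest on CSHA at -0.71, with -1.73 at its other probe. RARB, a receptor and target of retinoic acid, read 89.8 on TCP and was not well above background on the membranes, which bounds its differences at -2.34 or below on CS and -1.92 or below on CSHA. RXRG, a partner of these receptors, read 75.6 on TCP and 33.1 on CS, a difference of -1.45, and was bounded at -1.67 or below on CSHA. RARB and RXRG have 2 probes each, of which only the brighter is given. CYP26B1, RARB and RXRG were outside the rule for named genes and are given because they passed 2-fold, after their values were seen. The direction of the bounds of these genes is fixed by the filter, and they are not counted.

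The alcohol dehydrogenases and enzymes of acetaldehyde and acetate, which work beside ALDH2 and ALDH1B1, held 6 of 12 genes measured on all arrays. On CS the 6 were higher, by 0.30 to 1.06 (median 0.38). On CSHA the median was 0.30, and ADH5 at 0.03 and CAT at 0.02 were within the spot error. With the 75th percentile taken over detected probes, ADH5 and CAT were at -0.03 and -0.04, and with quantile normalization CAT was at -0.03. ADH4 and ADH6 passed the background flag on a membrane and not on TCP, so the direction of their bounds is fixed by the filter and they are not counted. ADH1A, an alcohol dehydrogenase of class I, was the highest on both at 1.06 (spot error 0.26) and 0.78 (spot error 0.28), from dim signals of 34.3, 85.5 and 56.2 on TCP, CS and CSHA. The lowest were ADH5, the formaldehyde dehydrogenase, on CS, and CAT, catalase, on CSHA. On CSHA the 6 genes were lower than on CS, with a median gap of -0.28, which became 0.10 with spike-in scaling.

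Among 13 other enzymes that remove aldehydes, 10 of 11 were higher on CS (median 0.16) and 8 of 11 on CSHA (median 0.13), or 6 with the 75th percentile over detected probes. AKR1B10, a retinal reductase of the gut, read 41541 on TCP, 85129 on CS and 75790.0 on CSHA. Its differences of 0.78 and 0.94 were the highest of the list, and its other probe gave 0.80 and 0.92. AKR1A1 was the lowest on CS at -0.10, and AKR7A3 on CSHA at -0.76.

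The 13 genes listed under fatty aldehyde and sphingolipid breakdown had 9 of 11 higher on CS (median 0.23) and 10 of 11 on CSHA (median 0.48). FAR2, a fatty acyl reductase, was the highest on CS at 0.54, and PHYH, the phytanoyl hydroxylase, on CSHA at 0.74. SPHK1, a sphingosine kinase, was the lowest on CS at -0.08. SGPL1, the sphingosine phosphate lyase, was the lowest on CSHA at -0.20.

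The 17 genes of lysine, choline and carnitine pathways had no common direction on CS, where 5 of 13 were higher (median -0.03, or 0.03 with spike-in scaling). On CSHA 8 of 13 were higher (median 0.20). SARDH, a sarcosine dehydrogenase, rose by 1.14 (spot error 0.10) on CSHA, from signals of 178 on TCP and 211 on CS to 372. Another SARDH probe (A_24_P115507) was under 2-fold on CSHA, at 0.90, and a further one was not well above background on any array. PAOX, a polyamine oxidase, passed 2-fold on CSHA at 1.01 and is named after its values were seen. It has 3 probes, of which the brightest is given. On CSHA 2 of the 13 genes were at least 2-fold higher, and 4 with spike-in scaling. With the 75th percentile over detected probes 1 was, and with normexp background correction or the deposited values 0 were. Of the 13486 genes measured on all arrays, 263 were at least 2-fold higher on CSHA in the main setting. With spike-in scaling 1797 of all genes with a value, bounds included, were. DHTKD1, an enzyme of lysine breakdown, was the highest on CS at 0.45, PIPOX the lowest on CS at -0.27 (spot error 0.20), and ODC1 the lowest on CSHA at -0.50.

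**Figure D5:**
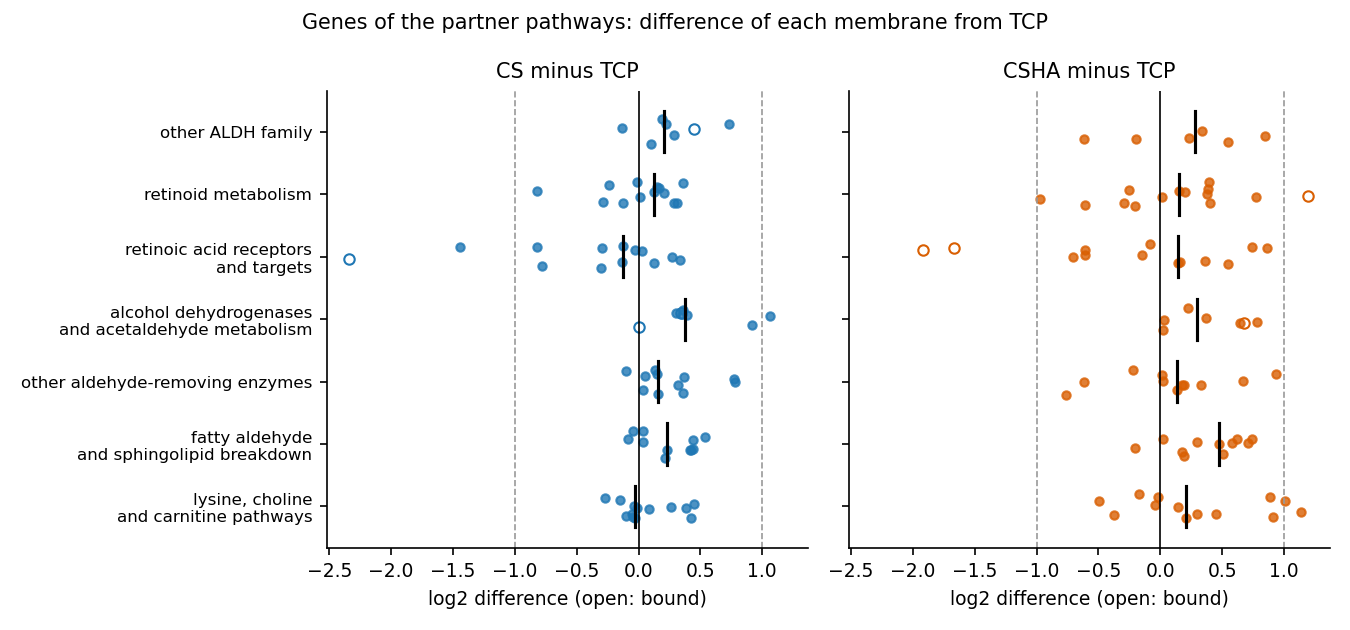
Log2 difference from TCP on CS (left) and CSHA (right) of each gene with a value in 7 lists of partner genes, with a black bar at the median of the genes measured on all arrays, open circles for bounds and dashed lines at 2-fold; vertical scatter within a row carries no meaning. On CS the alcohol dehydrogenase and acetaldehyde genes measured on all arrays lie between 0.30 and 1.06, on CSHA ADH5 and CAT lie near 0, and RARB and RXRG lie farthest to the left.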

How the data were processed

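RNA of HT29 cells on TCP, CS and CSHA was hybridized to 1 Agilent array per group. The authors' scanner files hold spot intensities from Feature Extraction 10.7.3.1 (per the file headers, with an array grid on hg19), a later version than their methods name. The labels and the methods also name different RNA and labelling kits. The authors' deposited table holds log2 values whose differences between arrays equal those of the log2 median signal plus a constant (largest deviation 8.7e-08 to 9.8e-08 over 62976 spots). Each spot was centred over the arrays, with medians of 0.013 (TCP), -0.13 (CS) and 0.043 (CSHA).

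For the values given here, processed signals under 1 were set to 1, log2 values were averaged over the spots of a probe, and each array was shifted by its 75th percentile (354 on TCP, 423 on CS, 337 on CSHA), as the methods describe for the raw signal. Control spots and spots flagged as outliers (264 to 359 per array) were left out. Of 50599 probes, 30004 matched a RefSeq (GRCh38.p14) transcript accession, and 20595 did not. They named 21614 genes, 21610 of them with a probe usable on all arrays. The probe with the highest mean level stood for a gene. Where a probe passed the background flag on only 1 of the arrays compared, its difference is given as a bound. The dim side was then set to its own signal or, if higher, to the faintest signal that passed on that array (21.1 to 24.1). A bound was kept only where the array that passed was the higher, so its direction is fixed by the filter. The spot error combines, for both arrays, the median SD among spots of the 50 probes nearest in brightness out of 902 printed 10 times, and the median SD was 0.05 to 0.06. The depth of an array has no count, and the number of arrays limits the precision.

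The genes named were the 10 members, the 9 other family genes, and in each list the genes with the highest and the lowest difference among those measured on all arrays. The members and lists were chosen with earlier results of these data known. A further leukocyte marker is not reported here and was left out of its list. With 1 array per group, the comparisons are differences with no test. In all, 10 alternatives and the thresholds of 1.5-fold and 3-fold were tried. Normexp, with an offset of 50, used the median spot signal, because the mean is no column of the files. The calculation was tested on simulated data. Tools were Python 3.11.15, numpy 2.4.6, pandas 2.3.3, matplotlib 3.10.9, R 4.3.3 and limma 3.58.1.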

Additional observations from a re-analysis of the deposited data

Results flagged for a closer look

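The dimmer probe of ALDH1A1 (A_33_P3379644) had a difference from TCP of 0.26 for CS and -0.18 for CSHA. It was marked because it lay above TCP on CS and below TCP on CSHA, and this difference was not tested, with 1 array per membrane. With spike-in scaling it was at 0.32 on CS and 0.25 on CSHA. The left-out CSHA spot of ALDH3B1 (A_33_P3236563) had a processed signal of 18933, where TCP had 258 and CS 237. It was marked because that signal lies in data no comparison used. Its median signal was 16770.0 against a local background of 46, and the software flagged it as not uniform.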

How the results depend on the processing

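No paired analysis was possible because each group had 1 array, and for the same reason no replicate could be left out. Of 270 differences of single members under 10 alternatives, 210 stayed within the spot error of the main value, 60 moved further and 8 changed sign, 6 of them with spike-in scaling and the others for ALDH3B1 with outlier spots kept (6.27 on CSHA, and 6.65 for CSHA against CS). Spike-in scaling shifted all values of a comparison by the same amount. With outlier spots kept, the flagged CSHA spot entered and its probe (A_33_P3236563) stood for ALDH3B1. The cause of the other moves was not tested. Without a filter on dim probes the median of all genes on CSHA moved by -0.12. The median of the members on CS, 0.29, was 0.35 with spike-in scaling, 0.21 with no filter and 0.39 with the mean over probes. On CSHA, 0.41 became 0.34 with quantile normalization or the mean over probes and 0.84 with spike-in scaling. For CSHA against CS, -0.06 became 0.32 with spike-in scaling, 0.047 with no filter and 0.15 with outlier spots kept, and spike-in scaling placed 7 members higher instead of 4. The count of members at least 2-fold higher was 2 at 1.5-fold and 0 at 3-fold on CS. On CSHA it was 3 with spike-in scaling, 1 with outlier spots kept and 3 at 1.5-fold, and with outlier spots kept it was 1 for CSHA against CS.

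On CS, 197 genes were 2-fold higher or more and 278 as much lower. They were 58 and 107 with normexp, 34 and 40 in the deposited values, which allow no bounds, 634 and 1152 with no filter, and 84 and 80 when all arrays had to be well above background. On CSHA 442 and 582 became 157 and 293, 123 and 277, and 1130.0 and 1191 under the first 3 of these, 1797 and 177 with spike-in scaling, and 263 higher with all arrays well above background. For CSHA against CS, 332 and 314 became 108 and 149, 47 and 116, 1111 and 676, and 108 and 203 under those 4, and 983 and 117 with spike-in scaling. Values near background, such as ALDH1A2 and the dimmest ALDH7A1 probe, are limited by signal over background.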
